A study of Mus musculus with 20 samples.

Results

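The Ms4a membrane protein family was followed through 20 mouse macrophage RNA-seq libraries from 2 experiments. The 9 members were Ms4a4a, Ms4a4b, Ms4a4c, Ms4a6b, Ms4a6c, Ms4a6d, Ms4a7, Ms4a8a and Ms4a14, and they were taken by gene name from the 56748 genes in the deposited count tables. The family was chosen by the measured counts of Ms4a7, which were much lower in stimulated iNOS KO cells than in stimulated wildtype cells. Values from that comparison are therefore given below as a description, without a test.

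Ms4a genes encode small proteins that cross the membrane several times with both ends in the cytoplasm, and most of them lie side by side in a single gene cluster. Ms4a1 encodes CD20 of B cells and Ms4a2 the beta chain of the high affinity IgE receptor, both of which sit beside immune receptors and shape their signalling. Several other members are expressed in monocytes and macrophages, where Ms4a4a is known as a partner of the beta-glucan receptor Dectin-1 and Ms4a7 as a marker of mature macrophages.

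In the first experiment, wildtype cells and cells lacking inducible nitric oxide synthase (iNOS, encoded by Nos2) were left unstimulated or received 50 ng/mL lipopolysaccharide (LPS) with 30 ng/mL IFNγ for 48 h, and the stimuli were washed off before RNA was collected, with 3 libraries in each of the 4 groups. The labels of these libraries give bone marrow-derived macrophages (BMDM) of C57BL/6J mice, wildtype or iNOS KO, aged 6 to 12 weeks, male or female, grown in 20 ng/mL M-CSF. The study's methods describe an RNA-seq of this design in RAW264.7 cells, so the libraries are called "labelled BMDM" throughout. In the second experiment, wildtype and Akr1a1 KO RAW264.7 cells, a mouse macrophage-like line, were treated in the same way except that IFNγ was used at 10 ng/mL, with 2 libraries per group. The RAW264.7 knockout was made with CRISPR-Cas9, and the methods describe its replicates as separate clones, whereas bone marrow was pooled within each genotype. The study's methods give its wildtype mice as C57BL/6J and its iNOS KO mice as B6.129P2-Nos2tm1Lau/J, which carry the germline allele Nos2tm1Lau. Whether these libraries carry that allele or a deletion made in the cell line depends on which source is right about the cells. If they came from those mice, strain background and knockout cannot be told apart. Nothing in the labels says that the libraries labelled BMDM came from separate mice, so p-values measure only the spread between these samples, which may be technical.

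Each library held 15072109 to 18878107 counts in the first experiment and 11876719 to 44583327 in the second. Nos2 stood at 10370 to 11533 CPM (counts scaled to a common library size) in stimulated wildtype and 870 to 912 CPM in stimulated iNOS KO libraries labelled BMDM, and its count was 0 in the 3 unstimulated iNOS KO libraries. Akr1a1 was 21.8 to 206 CPM in unstimulated and 212 to 370 CPM in stimulated Akr1a1 KO cells, against 427 to 488 and 576 to 675 CPM in the matching wildtype cells. Replicate B of the stimulated iNOS KO group stood apart from its fellows, with a chi-square per degree of freedom of 28.8 and 36.8 against 2.65 to 7.74 for the other pairs within groups. In RAW264.7 cells, the titles of replicate B of both unstimulated groups name stimulated cells, while their treatment field and library name give no stimulation. Nos2 was 30.7 CPM in that wildtype library, against 4.21 CPM in unstimulated wildtype replicate A. It was 38.1 CPM in that Akr1a1 KO library, against 54.7 CPM in unstimulated Akr1a1 KO replicate A, and 4155 to 8806 CPM in the stimulated libraries. The treatment field was followed, and results without these libraries are given where they differ. Of 10 macrophage markers (Csf1r, Adgre1, Cd68 and others) none was at 0 throughout either experiment.

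Ms4a6d was the most abundant member in every group, and stimulation raised it more than 20-fold in both experiments and all genotypes. Ms4a7 and Ms4a14 were highest in the stimulated wildtype libraries labelled BMDM, whereas Ms4a6b and Ms4a6c were higher in the stimulated iNOS KO libraries than in the stimulated wildtype ones. Ms4a4b and Ms4a4c were low and rose with stimulation, and Ms4a4a and Ms4a8a were barely detected. The plot of CPM by library shows these levels for all 9 members.

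**Figure D1:**
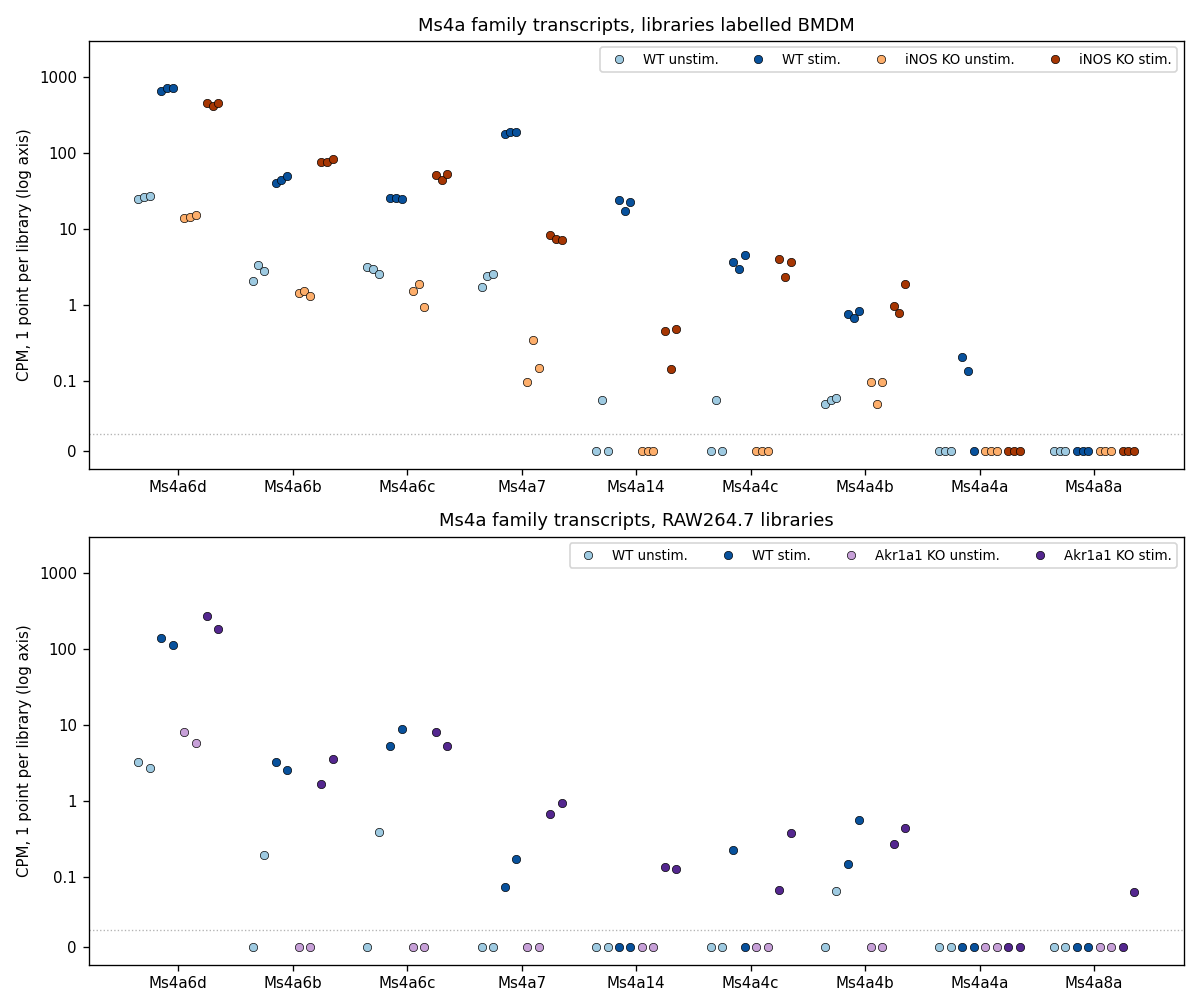
CPM of the 9 members in each library (log axis, counts of 0 drawn at the tick marked 0), with the libraries labelled BMDM above and the RAW264.7 libraries below and 1 point per library. Ms4a7 lay between 176 and 188 CPM in stimulated wildtype libraries labelled BMDM, between 7.1 and 8.29 CPM in stimulated iNOS KO, and under 1 CPM in every RAW264.7 library.

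Ms4a7 (ENSMUSG00000024672, listed at 19, 11298403 to 11313510, minus strand) is the member by which the family was chosen. In the libraries labelled BMDM it was 1.74, 2.39 and 2.58 CPM in unstimulated wildtype cells and 176, 188 and 186 CPM in stimulated wildtype cells. It was 0.0963, 0.348 and 0.146 CPM in unstimulated and 8.29, 7.28 and 7.1 CPM in stimulated iNOS KO cells, from 2, 7 and 3 counts and from 129, 101 and 119 counts. The 4 groups did not overlap, and stimulated iNOS KO cells stood above unstimulated wildtype cells but far below stimulated wildtype cells. The log2 fold change with stimulation was 6.36 ± 0.134 (SE) in wildtype, or 82.3-fold, and 5.22 ± 0.238 in iNOS KO cells, or 37.3-fold. These are given without a p-value, because the stimulated values in them are those that chose the family.

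Without stimulation, a comparison that did not enter the choice of the family, Ms4a7 was already lower in iNOS KO than in wildtype cells. The log2 fold change was -3.46 ± 0.297, with a p of 9.42e-07 after Benjamini-Hochberg adjustment (edgeR's quasi-likelihood test), and all 3 iNOS KO libraries lay below all 3 wildtype libraries. Nos2 itself was 1.25 to 1.53 CPM in these unstimulated wildtype libraries. In stimulated cells, the comparison used for the choice, Ms4a7 was 24.2-fold lower in iNOS KO (log2 fold change -4.6, from -4.69 to -4.53 over 20 alternative settings). The difference between the responses of the genotypes to stimulation was -1.14 on the log2 scale and is likewise only described. It was -0.48 without iNOS KO unstimulated replicate B, which held 7 of the 12 Ms4a7 counts of its group. In bulk RNA, fewer cells with a transcript and less of that transcript per cell cannot be told apart.

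Ms4a14 (ENSMUSG00000099398, 11278613 to 11291818, minus strand) lies next to Ms4a7 on the same strand, with 6.6 kb between them. Its counts were 349, 252 and 321 in stimulated wildtype libraries labelled BMDM and 7, 2 and 8 in stimulated iNOS KO libraries, or 17.0 to 24.2 CPM and 0.144 to 0.477 CPM. In unstimulated cells 1 count was found in wildtype replicate B and 0 in the other libraries of both genotypes. The stimulated groups thus did not overlap, and as a description Ms4a14 was 56.4-fold lower in stimulated iNOS KO than wildtype cells (log2 fold change -5.82). Stimulation raised it in wildtype by a ratio of 1163, with a 95% exact counting interval of 208 to 45981. In iNOS KO it rose by at least 7.53-fold against a floor of 3 counts over the group. These changes are given without a p-value, because Ms4a14 reached 10 counts only through stimulated libraries. For each 100 counts of Ms4a7 there were 9.06 to 13.7 of Ms4a14 in stimulated wildtype and 1.98 to 6.72 in stimulated iNOS KO libraries. Counts of this size limit the iNOS KO ratio to a description.

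The 250 bases before the start sites of Ms4a7 and Ms4a14 are shown because both transcripts were highest in stimulated wildtype libraries labelled BMDM and far lower in stimulated iNOS KO libraries. They are RefSeq sequences of GRCm38.p6, written 5′ to 3′ on the gene's strand. Ms4a7 has 2 listed start sites, of which the outer is printed, chr19:11336147-11336396, and the Ms4a14 window is chr19:11314455-11314704. Capitals mark matches to the motifs searched.
Ms4a7: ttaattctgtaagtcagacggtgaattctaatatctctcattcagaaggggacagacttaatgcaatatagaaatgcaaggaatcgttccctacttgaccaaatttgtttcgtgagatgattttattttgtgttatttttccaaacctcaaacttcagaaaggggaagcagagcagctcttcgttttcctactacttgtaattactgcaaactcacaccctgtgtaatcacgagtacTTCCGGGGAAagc
Ms4a14: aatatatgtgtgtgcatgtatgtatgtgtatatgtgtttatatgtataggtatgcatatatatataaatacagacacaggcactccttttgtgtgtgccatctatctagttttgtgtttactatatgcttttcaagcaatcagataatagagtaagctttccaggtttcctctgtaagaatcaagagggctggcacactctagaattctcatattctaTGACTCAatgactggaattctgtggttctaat

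A total of 9 motifs were searched on both strands of the 250-base windows of all genes, 32851 in number. They were GAS (TTCNNNGAA, in 7.02% of windows), a STAT6-type spacing (TTC and GAA 4 bases apart, 5.85%), ISRE (GAAA and GAAA 2 bases apart, 2.98%), EICE (GGAA and GAAA 2 bases apart, 2.3%), PU.1 (AGGAAGT, 7.69%), AP-1 (TGANTCA, 6.75%), NF-kB (GGGA and CC 4 bases apart, 17.6%), E-box (CACGTG, 6.02%) and the NRF2 antioxidant response element (TGACNNNGC, 10.2%). The outer Ms4a7 window held 1 match, to the STAT6-type spacing, 13 to 4 bases before the start, and the inner Ms4a7 window held 1 match to AP-1. The Ms4a14 window held 1 match to AP-1, 32 to 26 bases before the start. In the members' windows no match overlapped a match of another motif. A match describes the letters in the window and is not a measured binding site.

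Ms4a6d (ENSMUSG00000024679, 11563968 to 11582213, minus strand) carried most of the family's RNA. In the libraries labelled BMDM its level was 24.9, 26.5 and 27.0 CPM in unstimulated wildtype and 660, 717 and 705 CPM in stimulated wildtype cells. Its level in the iNOS KO libraries was 14.0, 14.2 and 15.2 CPM without and 447, 418 and 447 CPM with stimulation. The 4 groups did not overlap, and iNOS KO cells were lower than wildtype in both states. Stimulation raised Ms4a6d 26.6-fold in wildtype (log2 fold change 4.73 ± 0.0717, adjusted p 6.09e-18) and 30.2-fold in iNOS KO cells (4.92 ± 0.0735, adjusted p 5.3e-18) by edgeR's quasi-likelihood test. Without stimulation the log2 fold change of iNOS KO over wildtype was -0.85 ± 0.07 (adjusted p 5.64e-07, edgeR), which fell short of the fold limit of 1 on the log2 scale used for calls in this experiment. With stimulation the described difference was 1.59-fold.

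Ms4a6b (ENSMUSG00000024677, 11493876 to 11508620) and Ms4a6c (ENSMUSG00000079419, 11446730 to 11459556) lie on the plus strand and went the other way in stimulated iNOS KO cells. In the libraries labelled BMDM, Ms4a6b was 2.04, 3.39 and 2.76 CPM in wildtype cells without stimulation, 40.2, 44.3 and 50.1 CPM in stimulated wildtype, 1.44, 1.54 and 1.32 CPM in unstimulated iNOS KO and 75.8, 76.4 and 83.1 CPM in stimulated iNOS KO cells. Ms4a6c was 3.14, 3.0 and 2.58 CPM, 25.6, 25.1 and 25.0 CPM, 1.54, 1.89 and 0.927 CPM, and 50.7, 43.5 and 53.5 CPM in the same order of groups. For both genes iNOS KO libraries lay below wildtype without stimulation and above wildtype with it, and no pair of groups overlapped. As a description, stimulated iNOS KO cells had 1.75-fold more Ms4a6b and 1.96-fold more Ms4a6c than stimulated wildtype cells.

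Stimulation raised Ms4a6b 16.5-fold in wildtype (log2 fold change 4.04 ± 0.138, adjusted p 9.54e-14) and 54.4-fold in iNOS KO cells (5.77 ± 0.148, adjusted p 3.7e-15) by edgeR's quasi-likelihood test. The same test gave 8.62-fold for Ms4a6c in wildtype (3.11 ± 0.148, adjusted p 8.14e-12) and 33.8-fold in iNOS KO cells (5.08 ± 0.159, adjusted p 4.89e-14). Without stimulation Ms4a6c was 2.01-fold lower in iNOS KO cells (log2 fold change -1.0 ± 0.203, adjusted p 0.00516, edgeR), at the edge of the fold limit. Its call ended with DESeq2 and in other settings that moved the log2 fold change to between -0.76 and -1.0, as it did without wildtype unstimulated replicate A, where it was -0.94, or B, -0.98, without iNOS KO unstimulated replicate C, -0.76, and without iNOS KO stimulated replicate A, -1.0. Ms4a6b had -0.92 ± 0.197 (adjusted p 0.008, edgeR), short of that limit. Counts of Ms4a6b were 6.08 to 7.1 for each 100 of Ms4a6d in stimulated wildtype and 17.0 to 18.6 in stimulated iNOS KO libraries.

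The windows before Ms4a6b (chr19:11518309-11518558) and Ms4a6c (chr19:11469118-11469367), RefSeq GRCm38.p6, plus strand, are shown because both transcripts had the same order of groups. Capitals again mark motif matches.
Ms4a6b: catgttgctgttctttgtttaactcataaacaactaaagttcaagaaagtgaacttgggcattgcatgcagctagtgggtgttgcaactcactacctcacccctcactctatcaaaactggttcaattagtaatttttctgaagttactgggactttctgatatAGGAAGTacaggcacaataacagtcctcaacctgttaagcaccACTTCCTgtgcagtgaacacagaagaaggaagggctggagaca
Ms4a6c: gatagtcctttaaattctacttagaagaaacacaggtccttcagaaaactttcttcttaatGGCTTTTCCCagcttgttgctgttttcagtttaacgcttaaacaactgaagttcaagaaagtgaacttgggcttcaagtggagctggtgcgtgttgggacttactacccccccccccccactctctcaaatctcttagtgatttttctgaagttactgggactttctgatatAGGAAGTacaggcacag
The longest run they share is 48 bases, 118 to 71 bases before the start of Ms4a6b and 49 to 2 bases before that of Ms4a6c, and it holds the PU.1 match of both.
shared run: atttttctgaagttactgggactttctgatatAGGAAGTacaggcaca
Ms4a6b had a second PU.1 match 43 to 37 bases before its start, on the other strand, and Ms4a6c an NF-kB match 189 to 180 bases before its start. The windows of Ms4a4b and Ms4a4c shared a run of 20 bases and held none of the 9 motifs. The Ms4a4a window held 2 NF-kB matches that overlapped each other and 1 match to the antioxidant response element, and the Ms4a8a window held 1 AP-1 match. Windows were listed for 8 of the 9 members, with Ms4a6d the exception.

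Ms4a4c (ENSMUSG00000024675, 11382134 to 11404610) and Ms4a4b (ENSMUSG00000056290, 11420917 to 11444419), a protein first known from T cells, were near the detection limit in unstimulated cells. Ms4a4c counts in libraries labelled BMDM were 0, 1 and 0 in unstimulated and 53, 44 and 65 in stimulated wildtype, and 0 in each unstimulated and 62, 32 and 62 in stimulated iNOS KO libraries. Those of Ms4a4b were 1 in each unstimulated and 11, 10 and 12 in stimulated wildtype, and 2, 1 and 2 in unstimulated and 15, 11 and 32 in stimulated iNOS KO libraries. For both genes the stimulated groups of the 2 genotypes overlapped, and every stimulated library lay above every unstimulated one.

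Stimulation raised Ms4a4c in wildtype by a ratio of 204 (95% counting interval 36.2 to 8120) and in iNOS KO by at least 69.1-fold. For Ms4a4b the ratio was 13.9 in wildtype (4.35 to 70.7) and the fitted change 14.0-fold in iNOS KO (log2 fold change 3.81 ± 0.511). Both genes reached 10 counts only through stimulated libraries, so no p-value is given for these changes. Without stimulation the iNOS KO to wildtype ratio of Ms4a4b was 1.5 (0.291 to 9.64, adjusted p 0.84, edgeR), and neither genotype had more than 3 counts of Ms4a4c or Ms4a14. As a description, the log2 fold changes in stimulated iNOS KO cells were -0.15 for Ms4a4c and 0.71 for Ms4a4b.

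Ms4a4a (ENSMUSG00000101389, 11352887 to 11370154) had 3, 2 and 0 counts in stimulated wildtype libraries labelled BMDM and 0 in all others, including every RAW264.7 library. The stimulated wildtype and stimulated iNOS KO libraries overlapped at 0. Counts this low give no firm bound on a difference between them, and none was tested. Ms4a8a (ENSMUSG00000024730, 11044835 to 11058466) had 0 counts in all 12 libraries labelled BMDM, which allows up to 0.0145 CPM, and 1 count in RAW264.7 cells, in a stimulated Akr1a1 KO library. Both genes have been linked to alternatively activated macrophages, and neither had the 10 counts in total that a test required.

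A gene was called at an adjusted p under 0.05, in the libraries labelled BMDM also with an absolute log2 fold change over 1. Of the 9 members 7 were tested there, and stimulation called 7 higher in wildtype, where 35.4% of the 18691 genes tested were called in either direction and 19.7% higher. In iNOS KO cells 7 were called higher, against 22.8% of all genes in either direction and 14% higher. Ms4a4b, Ms4a4c and Ms4a14 reached 10 counts only through stimulated libraries and had to differ, and the stimulated values of Ms4a7 chose the family, so these counts carry no weight of their own. Without stimulation 2 of 7, Ms4a7 and Ms4a6c, were lower in iNOS KO, against 1.66% of genes called, 1.01% lower and 0.653% higher. In the comparison that chose the family 19.6% of genes were called, 10.7% higher and 8.87% lower. For the interaction, called on the adjusted p alone with no fold limit, the share was 35.4%. The plot of fold changes shows each fitted value with its standard error.

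**Figure D2:**
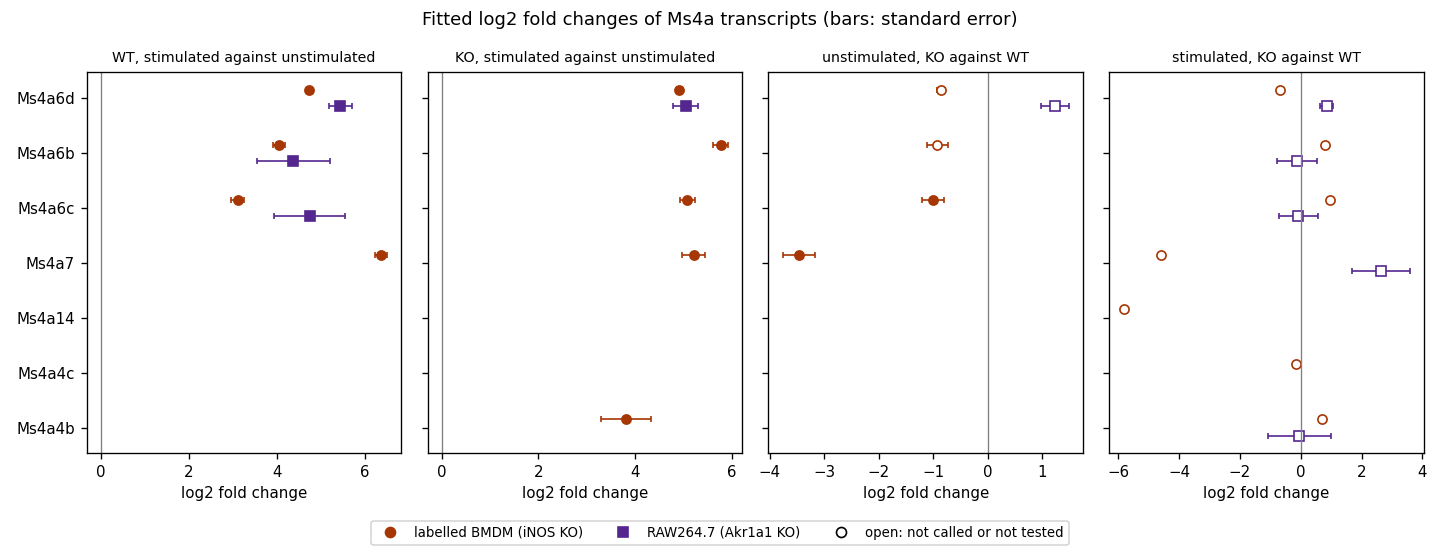
Fitted log2 fold changes with standard errors of members with counts in both groups, in 4 comparisons, with circles for libraries labelled BMDM and squares for RAW264.7, filled where past the threshold. Ms4a7 sits at -3.46 in unstimulated iNOS KO cells. The stimulated iNOS KO comparison, which chose the family, is drawn open and without error bars because it was not tested. For stimulation in the libraries labelled BMDM, a filled Ms4a7 marker carries no weight, because its stimulated values chose the family. The same holds for stimulation of members that reached the total count required for a test only through stimulated libraries.

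Divided by the gene length listed with the counts, an approximate scale between genes, Ms4a6d led each group labelled BMDM. In stimulated wildtype the mean CPM per kb was 400 for Ms4a6d, 41.2 for Ms4a7, 12.3 for Ms4a6c, 10.0 for Ms4a6b, 5.2 for Ms4a14 and 2.12 for Ms4a4c, and no neighbours in this order overlapped between libraries. Ms4a4a (0.137) and Ms4a4b (0.0862) came next and overlapped. In stimulated iNOS KO cells the order was Ms4a6d (252), Ms4a6c (24.0), Ms4a6b (17.5), Ms4a4c (1.9) and Ms4a7 (1.7), of which only the last pair overlapped. By this measure Ms4a7 stood at place 2 in stimulated wildtype and, overlapping with Ms4a4c, at place 5 in stimulated iNOS KO cells. These places depend on the listed lengths. By mean CPM in stimulated iNOS KO cells, Ms4a7 (7.56) was above Ms4a4c (3.33), and Ms4a6b (78.4) was above Ms4a6c (49.3). In unstimulated wildtype cells the order was Ms4a6d, Ms4a6c (1.42), Ms4a6b (0.609) and Ms4a7 (0.503), with Ms4a6b and Ms4a7 overlapping. In unstimulated iNOS KO cells it was Ms4a6d (8.33), Ms4a6c (0.709), Ms4a6b (0.32) and Ms4a7 (0.0442), with no overlap.

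The share of single members in the summed CPM per kb of the 9 genes shows the same values within each library. It rests on the same listed lengths. Ms4a6d held 84.1% to 91.7% in all 12 libraries labelled BMDM. Ms4a7 held 8.71% to 8.78% in stimulated wildtype and 0.52% to 0.614% in stimulated iNOS KO libraries, and 2.34% to 3.22% against 0.236% to 0.819% without stimulation. Ms4a6b held 1.99% to 2.33% and 5.57% to 6.04%, and Ms4a6c 2.53% to 2.77% and 7.53% to 8.52%, in stimulated wildtype and iNOS KO libraries. The sum itself was 450 to 484 CPM per kb in stimulated wildtype and 282 to 306 in stimulated iNOS KO cells.

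**Figure D3:**
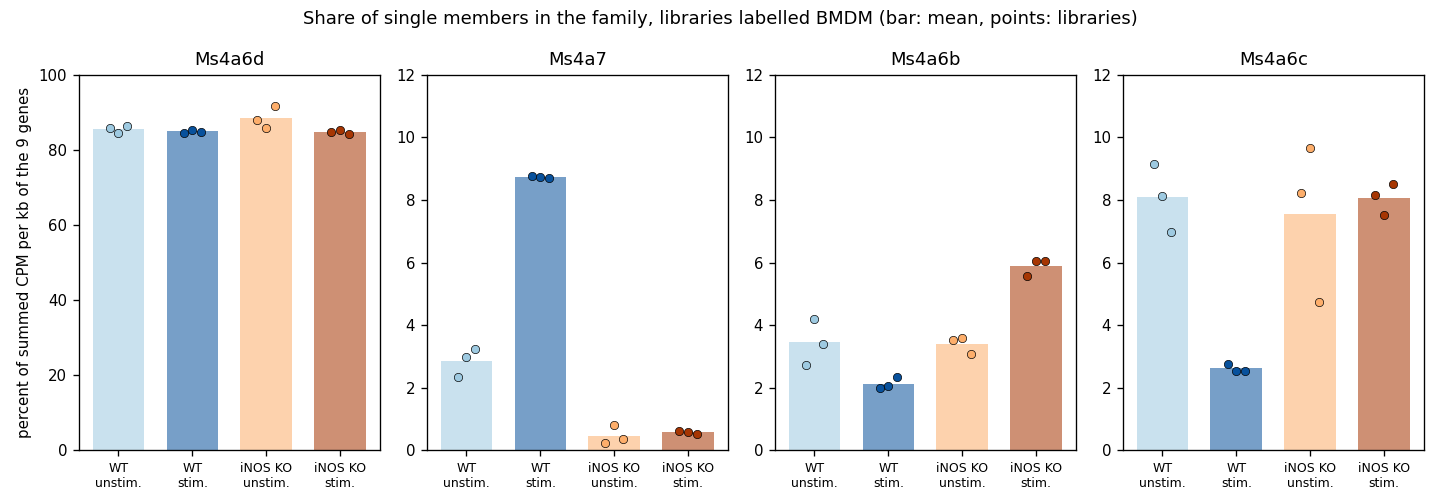
Percent of the summed CPM per kb of the 9 genes held by Ms4a6d (axis to 100), Ms4a7, Ms4a6b and Ms4a6c (axes to 12) in the libraries labelled BMDM, with bars for group means and points for libraries. Ms4a7 holds 8.74% on average in stimulated wildtype and 0.571% in stimulated iNOS KO cells, while Ms4a6d stays at 84.7% to 88.5% in every group mean.

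In RAW264.7 cells Ms4a6d was again the leading member, at 3.2 and 2.69 CPM in unstimulated wildtype and 138 and 112 CPM in stimulated wildtype cells. It was 7.93 and 5.84 CPM in unstimulated and 267 and 184 CPM in stimulated Akr1a1 KO cells, and the 4 groups did not overlap. Akr1a1 encodes an aldo-keto reductase that also acts on S-nitroso-coenzyme A. Stimulation raised Ms4a6d 43.3-fold in wildtype (log2 fold change 5.44 ± 0.266, adjusted p 4.33e-06) and 33.2-fold in Akr1a1 KO cells (5.05 ± 0.256, adjusted p 5.06e-06) by edgeR's quasi-likelihood test. Ms4a6d was higher in both Akr1a1 KO libraries than in both wildtype libraries in each state, by 1.23 ± 0.254 without stimulation (adjusted p 0.117, edgeR) and 0.85 ± 0.211 with it (adjusted p 0.201). These did not pass the threshold, whereas DESeq2 gave 0.00212 and 0.0357, and over all alternatives the adjusted p ran from 1.63e-07 to 0.788 and from 4.52e-05 to 0.527.

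Ms4a6c counts in wildtype RAW264.7 libraries were 0 and 18 without and 70 and 157 with stimulation, and in Akr1a1 KO libraries 0 and 0 without and 121 and 83 with it. Ms4a6b counts were 0 and 9, 43 and 45, 0 and 0, and 25 and 57 in the same order. The counts in unstimulated wildtype cells all came from replicate B, the deepest library and 1 of the 2 whose title names stimulated cells. By edgeR's quasi-likelihood test stimulation raised Ms4a6c 26.8-fold in wildtype (adjusted p 0.00291) and by at least 91.4-fold in Akr1a1 KO cells (adjusted p 0.00104). Ms4a6b rose 20.6-fold in wildtype and by at least 36.7-fold in Akr1a1 KO cells. Since Ms4a6b reached 10 counts only through stimulated libraries, no p-value is given for it. Without that replicate B the unstimulated wildtype group was at 0. The changes in wildtype were then at least 33.4-fold for Ms4a6c and at least 12.9-fold for Ms4a6b. Stimulated Akr1a1 KO and wildtype libraries overlapped for both genes, with log2 fold changes of -0.08 ± 0.64 for Ms4a6c and -0.12 ± 0.659 for Ms4a6b.

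Ms4a7 was close to absent from RAW264.7 cells. It had 0 counts in the 4 unstimulated libraries, 1 and 3 in stimulated wildtype and 10 and 15 in stimulated Akr1a1 KO libraries, or 0.0744 and 0.169 CPM and 0.67 and 0.942 CPM. The stimulated Akr1a1 KO libraries were both higher than the stimulated wildtype ones, with a log2 fold change of 2.63 ± 0.947 that did not pass the threshold. No p-value is given for it, because Ms4a7 reached 10 counts only through the stimulated Akr1a1 KO libraries. Stimulation raised Ms4a7 at least 11.2-fold in Akr1a1 KO cells, and in wildtype the bound was 2.57-fold. These changes with stimulation are given without a p-value for the same reason. The call in Akr1a1 KO cells ended without unstimulated Akr1a1 KO replicate B and without both libraries of conflicting labels. The level in stimulated wildtype libraries labelled BMDM, 176 to 188 CPM, stands beside these values, but the tables were scaled separately and the difference was not tested.

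Ms4a4b counts in wildtype RAW264.7 libraries were 0 and 3 without and 2 and 10 with stimulation, and in Akr1a1 KO libraries 0 and 0 without and 4 and 7 with it. It was called higher with stimulation in Akr1a1 KO cells, by at least 4.93-fold. That call ended when any of the 4 Akr1a1 KO libraries was left out and with DESeq2. Its p-value is left out, because Ms4a4b reached 10 counts only through stimulated libraries. Ms4a4c had 3 and 0 counts in stimulated wildtype and 1 and 6 in stimulated Akr1a1 KO cells, and Ms4a14 had 2 in each stimulated Akr1a1 KO library. Both were at 0 in all other RAW264.7 libraries.

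Of the 6 members tested in RAW264.7 cells, 3 were called higher with stimulation in wildtype, against 37.7% of the 19569 genes tested in either direction and 18.5% higher. In Akr1a1 KO cells 5 were called higher, against 39.2% and 19.8%, and 3 without both unstimulated replicates B. Ms4a4b, Ms4a4c, Ms4a6b and Ms4a7 reached 10 counts only through stimulated libraries and had to differ, so these counts carry no weight of their own either. Between the genotypes edgeR called 0 of 6 without stimulation (0.583% of all genes, 0.23% higher and 0.353% lower), with 3 at an unadjusted p under 0.05 and 1 called by DESeq2. It called 0 of 6 with stimulation (0.286%, 0.0869% higher and 0.199% lower), with 2 at an unadjusted p under 0.05 and 1 called by DESeq2. Of those 2, Ms4a7 was tested only because of its counts in stimulated Akr1a1 KO libraries. For the interaction edgeR and DESeq2 each called 0 of 6 (0.0204% of all genes by edgeR, 0.00511% higher and 0.0153% lower), with 1 at an unadjusted p under 0.05.

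Counts of related members can share reads. The coding sequences of Ms4a4b and Ms4a4c were 91.7% identical in the GENCODE transcripts, those of Ms4a6b and Ms4a6d 80.1%, of Ms4a6b and Ms4a6c 74.7% and of Ms4a6c and Ms4a6d 67.2%. Stretches of 50 bases found in both genes made up 7.73% of those of Ms4a4c for the pair with Ms4a4b, and 5.85% of those of Ms4a6c for the pair with Ms4a6b. Ms4a7 and Ms4a14 shared no such stretch with any member, and their coding sequences are 801 and 3696 bases long. How reads in shared stretches were assigned is not given in the sources used here, so values of these pairs are uncertain.

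The 5 protein-coding genes whose pattern over the 4 group means labelled BMDM lay nearest to that of Ms4a7 were Mmp12, Tent5c, Plpp3, Cd274 and Clec7a. Likeness was the root mean square difference of centred log2 CPM, over 8572 genes with a mean log2 CPM over 3, and these 5 had 0.9, 1.12, 1.18, 1.3 and 1.37. Mmp12, which encodes macrophage elastase, was 12.6 to 14.1 CPM in unstimulated and 781 to 887 CPM in stimulated wildtype, and at most 3.27 and 16.2 CPM in unstimulated and stimulated iNOS KO cells. Cd274, which encodes PD-L1, was 1942 to 2168 CPM in stimulated wildtype and 386 to 504 CPM in stimulated iNOS KO cells. Among the members, Ms4a6d came at place 16 (1.61), Ms4a6b at 131 (2.08) and Ms4a6c at 194 (2.2). Ms4a14 had a difference of 1.13, close to that of Tent5c, but lay under the level limit and was not ranked, as were Ms4a4c (1.87) and Ms4a4b (2.6). The list follows from the same libraries that chose Ms4a7 and is a description.

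**Figure D4:**
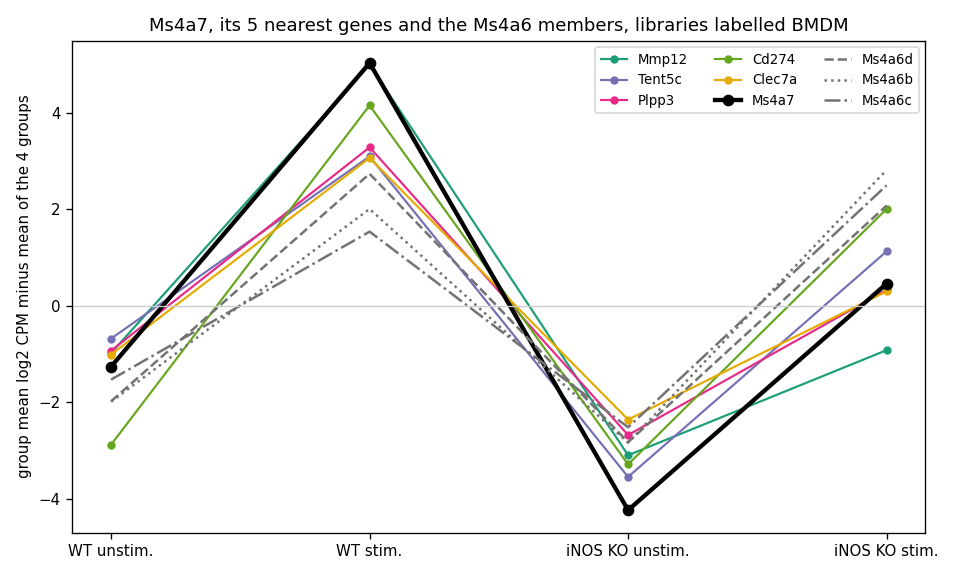
Centred group means of log2 CPM over the 4 groups labelled BMDM for Ms4a7 (black), its 5 nearest genes (colours) and Ms4a6d, Ms4a6b and Ms4a6c (grey, broken). Ms4a7 stands 5.04 above its own mean in stimulated wildtype and 0.46 above it in stimulated iNOS KO cells, whereas Ms4a6b stands at 2.01 and 2.82.

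Of 14 further family genes listed, which included Ms4a1, Ms4a2, Ms4a3 and the related Tmem176a and Tmem176b, 3 had enough counts to be tested in each experiment. Tmem176b was 20.7 to 22.1 CPM in unstimulated wildtype and 0.139 to 0.347 CPM in stimulated wildtype libraries labelled BMDM. It fell by 6.36 on the log2 scale with stimulation in wildtype (adjusted p 1.02e-14) and by 1.82 in iNOS KO cells (adjusted p 5.21e-10, both by edgeR). Tmem176a had log2 fold changes of -4.89 and -2.09, both called, and in stimulated cells Tmem176b and Tmem176a were higher in iNOS KO by 4.11 and 1.97. Without stimulation the log2 fold changes in iNOS KO were -0.43 and -0.83, short of the fold limit. Tmem176a and Tmem176b overlap in the table on opposite strands, and since the use of strand in counting is not given in the sources used here, their reads cannot be told apart with certainty. Ms4a4d had 1 count over the unstimulated and 14 over the stimulated wildtype libraries labelled BMDM, and 1 and 10 counts in iNOS KO, and since it was tested only because of its stimulated counts, no test is given. In RAW264.7 cells the log2 fold changes of Tmem176a and Tmem176b with stimulation were -5.09 and -3.79 in wildtype and -5.2 and -3.96 in Akr1a1 KO cells, all called lower, and Ms4a4d had 0 unstimulated and 21 stimulated counts in Akr1a1 KO cells.

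A list of 7 receptor and shedding genes that act beside Ms4a proteins (Clec7a, Trem2, Tyrobp, Fcer1g, Syk, Adam10 and Adam17) was tested in full. With stimulation 3 were higher and 1 lower in both genotypes labelled BMDM. Of all genes tested, 19.7% were higher and 15.7% lower in wildtype, and 14% and 8.78% in iNOS KO cells. Clec7a, encoding Dectin-1, rose by 4.08 on the log2 scale in wildtype and 2.71 in iNOS KO cells, and its kinase Syk by 2.45 and 1.93. Clec7a was lower in unstimulated iNOS KO cells (-1.36 ± 0.176, adjusted p 8.63e-05, edgeR), the 1 gene of the 7 called there, against 1.66% of all genes. It was also lower in stimulated iNOS KO cells (-2.73 ± 0.147), where Tyrobp, encoding the adaptor DAP12, was higher (1.09 ± 0.0867). In RAW264.7 cells 2 were higher and 3 lower with stimulation in wildtype (18.5% and 19.2% of all genes), 2 higher and 2 lower in Akr1a1 KO cells (19.8% and 19.4%). Clec7a went the other way there, lower with stimulation in wildtype (-3.27, adjusted p 0.00636, edgeR), and was lower in unstimulated Akr1a1 KO cells (-5.11 ± 0.786, adjusted p 0.0348, edgeR).

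All 10 genes of a classical activation list (such as Il6, Cxcl9 and Acod1) were called higher with stimulation in both genotypes labelled BMDM, and 8 in wildtype and 9 in Akr1a1 KO RAW264.7 cells. The shares of all genes given for the receptor list apply to all counts with stimulation here. Of 10 alternative activation genes 4 were tested in the libraries labelled BMDM. Clec10a was called lower with stimulation in both genotypes there, and Mrc1, the mannose receptor, was higher in stimulated iNOS KO cells than in unstimulated ones (1.2 ± 0.364) and lower in unstimulated iNOS KO than wildtype cells (-2.6 ± 0.309, adjusted p 3.73e-05, edgeR). In RAW264.7 cells 7 were tested, with 3 higher and 2 lower in wildtype and 2 higher and 1 lower in Akr1a1 KO cells. Of the 10 macrophage markers, 5 were called higher and 2 lower with stimulation in wildtype labelled BMDM (median log2 fold change 0.96, against 0.07 for all genes) and 5 and 1 in iNOS KO cells. In RAW264.7 cells 4 and 3 of 9 tested were called in wildtype and 5 and 3 in Akr1a1 KO cells. Between the genotypes labelled BMDM, 1 marker was called higher and 1 lower in iNOS KO cells without stimulation (0.653% and 1.01% of all genes). With stimulation 2 and 2 markers were called (10.7% and 8.87%). Among them, Mertk was lower in iNOS KO cells with stimulation (-2.69 ± 0.293), and Cx3cr1 was higher without it (1.15 ± 0.0882) and with it (3.52 ± 0.136). In Akr1a1 KO against wildtype RAW264.7 cells 0 markers were called higher and 2 lower in each state. Of all genes, 0.23% were higher and 0.353% lower without stimulation, and 0.0869% and 0.199% with it. The summed macrophage markers of stimulated RAW264.7 cells were 3337 to 7014 CPM in Akr1a1 KO and 9137 to 10022 CPM in wildtype libraries.

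Summed markers of other cell types were low beside the macrophage markers, whose sum was 6726 to 7529 CPM in stimulated wildtype and 10002 to 10442 CPM in stimulated iNOS KO libraries labelled BMDM. The 8 neutrophil markers summed to 35.8 to 62.3 and 38.5 to 44.3 CPM, with Ly6g at 0, the 6 fibroblast markers to 3.65 to 4.92 and 11.3 to 16.6 CPM, with Col3a1 at 0, and the 6 mast cell and basophil markers to 1.66 to 2.15 and 3.92 to 5.19 CPM, with Fcer1a, Mcpt4, Tpsb2 and Ms4a2 at 0. The 5 dendritic cell markers summed to 0.9 to 1.73 and 2.52 to 3.88 CPM, with Siglech at 0, the 5 B cell markers to 1.01 to 1.45 and 0.193 to 0.537 CPM, and the 7 T and NK cell markers to 0.405 to 1.04 and 0.537 to 1.03 CPM, with Cd3d, Cd3g, Nkg7 and Ncr1 at 0. In unstimulated libraries labelled BMDM the neutrophil sum was 0.433 to 1.17 CPM and each of the other 5 sums was at most 1.78 CPM, so neutrophil, fibroblast, mast cell and B cell sums moved with stimulation as the members did. In RAW264.7 cells the neutrophil sum was 121 to 145 CPM in stimulated wildtype and 248 to 420 CPM in stimulated Akr1a1 KO libraries, against at most 0.623 CPM without stimulation. The part of these markers in the members' values was not tested.

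The 9 members span 537.4 kb of chromosome 19 in the positions of the table. Among protein-coding genes of other families within 1 Mb of the outermost members 39 were tested. With stimulation 12 of them were higher and 6 lower in wildtype labelled BMDM (median log2 fold change 0.34), and 7 higher and 3 lower in iNOS KO cells (0.3). Of all genes tested, 19.7% were higher and 15.7% lower in wildtype, and 14% and 8.78% in iNOS KO cells. In stimulated iNOS KO against wildtype cells 4 were higher and 8 lower, against 10.7% and 8.87% of all genes. Without stimulation their log2 fold changes in iNOS KO ran from -1.76 to 2.95 with a median of -0.22, above the -3.46 of Ms4a7. In RAW264.7 cells 9 were higher and 8 lower with stimulation in wildtype and 9 and 9 in Akr1a1 KO cells. The shares of all genes there were 18.5% and 19.2%, and 19.8% and 19.4%. The plot along the cluster shows these genes beside the members.

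**Figure D5:**
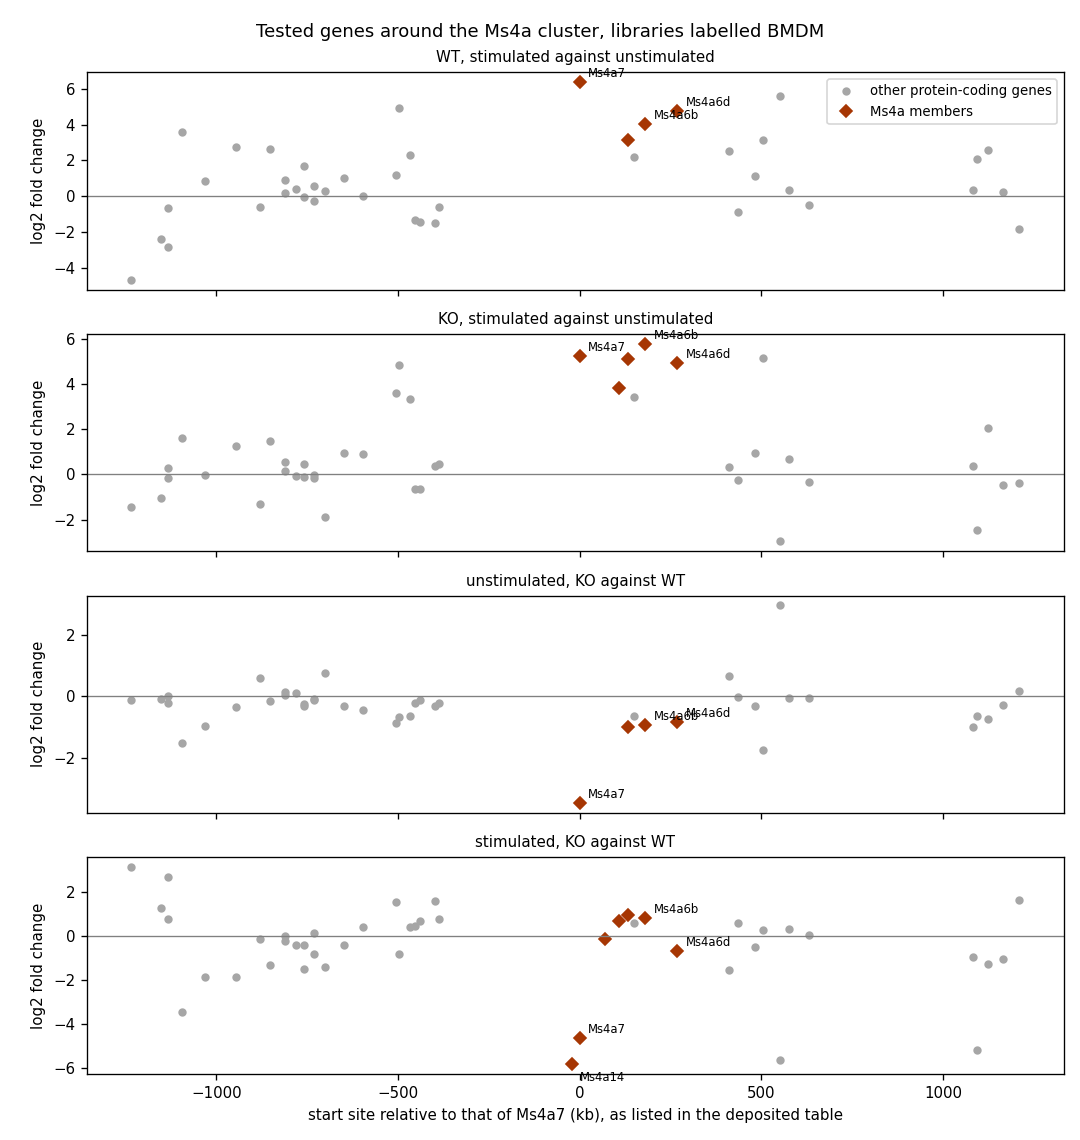
Log2 fold changes of the tested genes around the cluster in the libraries labelled BMDM, against the distance of their listed start from that of Ms4a7 in kb, with members as diamonds where a fitted fold change was given and other protein-coding genes as grey circles. In the unstimulated comparison Ms4a7 lies at -3.46, below all 39 other genes, whose lowest value is -1.76.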

How the data were processed

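Gene counts of 20 poly(A)-enriched libraries were analysed, 12 labelled BMDM and 8 from RAW264.7 cells. The deposited tables hold whole-number counts per gene, not normalized. Per the submitters' processing notes and the study's methods, the authors called bases with CASAVA, removed reads with adaptors or low quality and aligned the rest to mm10 with STAR. The counter, its handling of shared reads and its use of strand are not given in the sources used here. Among 52073 identifiers also present in the GRCm38 annotation of GENCODE, 2.85% had the start the tables list, and the members' starts differed by 22636 bases, so positions are given as listed and sequences were matched by gene symbol.

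Groups came from the labels. A gene was kept if its counts summed to 10 or more, which left 18691 and 19569 in the 2 experiments. The 2 experiments were fitted separately, all 4 groups together, by edgeR 4.0.16 (R 4.3.3), with TMM scaling, quasi-likelihood F tests, 2-sided, and Benjamini-Hochberg adjustment over all genes tested. Calls followed the study's thresholds, an adjusted p under 0.05 in both experiments and, for the libraries labelled BMDM alone, a log2 fold change beyond 1 in size. The common dispersion was 0.00845 and 0.0522. CPM used the TMM library sizes. A group with 0 counts was set to a floor of 3 counts over its libraries for a lower bound. That bound allows for no counting error in the other group. A total of 1 to 3 counts was given as a ratio with a 95% exact interval, which covers counting error only.

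The members and lists were chosen with earlier results of these data known. Named were the 9 members, Nos2 and Akr1a1, and the 5 genes nearest to Ms4a7. Neighbouring genes were given by count. The lists (other family genes, receptor partners, alternative and classical activation, and markers of 7 cell types) were given by count too, with some genes past the threshold named and others not. The list genes named, some of them short of the threshold, were chosen after their values were seen. On simulated counts the test of stimulation in wildtype called 193 of 200 changed genes with 10 unchanged genes in the libraries labelled BMDM (18336 genes), and 106 of 200 with 4 unchanged in RAW264.7 cells (19079 genes). These calls used the adjusted p alone, without a fold limit. The planted changes were 2- or 4-fold, left out genes of the lowest levels, and all genes shared the common dispersion. The rates therefore do not carry over to calls with the fold limit or to low-count members. Alternatives were DESeq2 1.42.0, its size factors, other filters, protein-coding genes, the replicate letter as a block, only the groups compared, other fold limits and each library left out. Nothing in the labels ties libraries of the same letter together. Among comparisons with 3 such pairs, correlations of their deviations from the group means were all over 0.1 only between unstimulated and stimulated iNOS KO libraries (0.404, 0.497 and 0.121). Other pairs labelled BMDM lay between -0.517 and 0.46, and RAW264.7 pairs, 2 per comparison, between -0.165 and 0.438. Sequences were handled with Biopython 1.88 and figures drawn with matplotlib 3.10.9 under Python 3.11.15.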

Additional observations from a re-analysis of the deposited data

Results flagged for a closer look

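In the libraries labelled BMDM, Ms4a6b and Ms4a6c differed in the sign of the iNOS KO effect between the unstimulated and the stimulated state. Ms4a6b had a log2 fold change of -0.92 without and 0.81 with stimulation, and Ms4a6c of -1.0 and 0.97. In each state all 3 iNOS KO libraries lay on the same side of all 3 wildtype libraries, below without and above with stimulation. The difference was not tested, since the stimulated comparison was used to choose the family.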

How the results depend on the processing

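Of 1162 values of single members recomputed under the alternatives, 1125 kept their direction and side of the threshold or moved within the spread between replicates, and of 144 counts of called members 127 stayed within 1.5 times. In unstimulated iNOS KO against wildtype cells the count of 2 fell to 1 with DESeq2, DESeq2's size factors, filterByExpr, protein-coding genes alone or only the groups compared, rose to 4 without a fold limit, and ran from 1 to 2 with a library left out. The lost call was that of Ms4a6c, whose log2 fold change lay at the limit, and without wildtype unstimulated replicate A Ms4a6b was called in its place (-1.1). In RAW264.7 cells the count between unstimulated genotypes rose from 0 to 1 with DESeq2 and to 2 without a count filter. That between stimulated genotypes rose from 0 to 1 in both settings, and that for the interaction from 0 to 1 without a filter. Ms4a6c gained the interaction call (5.36) and 1 of the unstimulated calls without a filter (-5.44), and the others were of Ms4a6d. All unstimulated counts of Ms4a6c, 18 in number, came from wildtype replicate B, whose title names stimulated cells. With stimulation in Akr1a1 KO cells the count of 5 ran from 3 to 5 with a library left out, and was 3 without both libraries of conflicting labels. Over all alternatives, the described log2 fold change of Ms4a4c in stimulated iNOS KO cells ran from -0.31 to 0.05, its interaction from -0.15 to 2.14 and that of Ms4a4b from -0.3 to 0.4. The described interaction of Ms4a7 ran from -1.46 to -0.48. As signs that turned, the interaction of Ms4a4c was -0.15 without wildtype unstimulated replicate B, its change in stimulated iNOS KO cells 0.01 and 0.05 without wildtype stimulated replicate C or iNOS KO stimulated replicate B, and the interaction of Ms4a4b -0.05 and -0.3 without iNOS KO unstimulated replicate B or stimulated replicate C. The cause was not tested.

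The replicate letters paired the samples by their deviations in 1 of the comparisons with 3 pairs, that of stimulated with unstimulated iNOS KO cells, where the block changed no call. With the letter as a block the count between unstimulated RAW264.7 genotypes was 1, Ms4a6d (log2 fold change 1.2, adjusted p 0.0159, edgeR), and no other call changed. Counts of 5 or fewer per group limit Ms4a4a, Ms4a8a, Ms4a14 and Ms4a4c in unstimulated cells, and Ms4a7 in unstimulated RAW264.7 cells.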
